A study of Mus musculus with 12 samples.

Results

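The 8 genes described here carry the BMP signal from ligand to nucleus: the ligand gene Bmp4, the receptor genes Bmpr1a and Bmpr2, the pseudoreceptor gene Bambi, the receptor-regulated SMAD genes Smad1, Smad5 and Smad9, and the inhibitory SMAD gene Smad6. They were chosen by gene symbol from a table of 47729 genes, and each symbol matched 1 gene. E14Tg2a is a line of mouse embryonic stem cells of strain 129/Ola, and the cells were either wild type (WT) or of the line delta 0.7, called delta here. The delta cells lack both copies of a stretch of DNA that regulates Tcf15, whose protein is a transcription factor of the bHLH class. The submitters place that deletion of 674 bases at chr2:152177049-152177722. Cells at 0 h had grown without serum in N2B27 with 2i and LIF. Cells at 12 h and 24 h had been moved onto fibronectin, in N2B27 to which Activin, bFGF and KOSR had been added. This medium induces epiblast-like cells (EpiLC) from naive ones. Both genotypes were sampled at all 3 times with 2 libraries each, giving 6 groups and 12 libraries. The delta columns all carry 1 clone name, so that genotype and clone cannot be told apart. The labels do not say that replicates came from separate cultures, and p-values therefore reflect only the spread among these libraries, which may be technical.

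BMP ligands are secreted proteins of the TGF-beta superfamily. They bring together type I and type II receptor kinases, which phosphorylate SMAD1, SMAD5 and SMAD9, and these enter the nucleus with SMAD4 and act on target genes such as those of the Id family. SMAD6 and BAMBI dampen the signal and are themselves known as targets of it. In mouse embryonic stem cells BMP4 is known to induce Id genes and to act with LIF in holding back differentiation, and in the embryo BMP4 from the extraembryonic ectoderm acts on the epiblast. The labels name no BMP among the additions to the media.

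The promoter sequences of Bmp4, Smad6 and Smad9 are shown because these were the members whose RNA changed over time. Each runs 5′ to 3′ on the gene's strand from 250 bases before the start of the RefSeq transcript (GRCm38.p6) to 10 bases after it. Capitals mark a match to either of 2 motifs that SMAD proteins are known to bind, the palindrome GTCTAGAC and the GC-rich GGCGCC. Both motifs read the same on the other strand and do not overlap each other here.
Bmp4, chr14:46390660-46390919, minus strand: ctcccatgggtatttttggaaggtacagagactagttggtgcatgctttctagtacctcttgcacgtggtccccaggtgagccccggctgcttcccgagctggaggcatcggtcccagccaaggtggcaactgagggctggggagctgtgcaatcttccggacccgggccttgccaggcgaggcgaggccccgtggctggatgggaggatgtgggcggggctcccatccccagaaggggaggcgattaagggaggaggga
Smad6, chr9:64022050-64022309, minus strand: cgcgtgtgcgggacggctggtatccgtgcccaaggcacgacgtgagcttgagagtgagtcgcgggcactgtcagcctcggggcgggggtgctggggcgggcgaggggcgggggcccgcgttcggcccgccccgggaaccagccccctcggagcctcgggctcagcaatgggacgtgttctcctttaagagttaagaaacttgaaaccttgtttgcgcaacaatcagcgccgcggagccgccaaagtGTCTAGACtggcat
Smad9, chr3:54755332-54755591, plus strand: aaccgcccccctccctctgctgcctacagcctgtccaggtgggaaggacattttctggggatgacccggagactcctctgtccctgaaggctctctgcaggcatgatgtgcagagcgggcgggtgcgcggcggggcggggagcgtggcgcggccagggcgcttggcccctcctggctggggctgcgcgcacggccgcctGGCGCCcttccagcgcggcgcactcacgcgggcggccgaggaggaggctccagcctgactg
The Smad6 sequence held GTCTAGAC beginning 4 bases before the transcript start, and this motif occurred in 70 of 32851 promoter windows of 300 bases in all, or 0.213%. The Smad9 sequence held GGCGCC beginning 51 bases before the start, a motif found in 11.9% of windows. The Bmp4 sequence held neither. GGCGCC also occurred in windows of Bmpr1a, Bmpr2 and Smad5, and the Smad1 window held neither motif. The windows were rich in G and C, with 64.0% in Bmp4, 66.3% in Smad6 and 73.7% in Smad9 against a median of 52.7% over all windows. A match is a match of letters only and not a measured binding site.

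Values are FPKM, the fragments on a gene per kilobase of its exons after scaling by a library size. This allows levels to be compared between genes. Depth, recovered from the steps between low values, ran from 9741446 to 17571822 reads per library. The size used in the scaling was 75.5% of these reads in delta replicate 1 at 0 h and 92.2% in WT replicate 1 at 0 h. In the other libraries it was 99.7% to 107%. Tcf15 read 3.45 to 99.4 FPKM in WT libraries and 1.04 to 4.44 FPKM in delta libraries, and was lower in delta in every pair of libraries of the same time and number. Pou5f1 and Sox2, which define pluripotent cells, were at 535 FPKM or more and 213 FPKM or more in every library. The 5 formative epiblast markers summed to 30.0 to 37.2 FPKM at 0 h. At 24 h they summed to 327 to 393 FPKM in WT and 499 to 510 FPKM in delta. The 7 markers of naive cells summed at 24 h to 509 to 518 FPKM in WT and 349 to 374 FPKM in delta. Markers of other cells were also read. All 7 primitive endoderm markers were below 1 FPKM in every library. The 7 fibroblast markers summed to 21.3 to 48.8 FPKM in the 3 WT libraries numbered 1, against 1.82 to 6.58 FPKM in the other 9. The 2 libraries numbered 1 at 0 h stood apart, with 11.4% and 13.3% of their reads on ribosomal protein genes against 5.72% to 7.47% elsewhere.

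Over the 12 libraries Bmp4 had the highest mean level of the 8 genes at 16.7 FPKM. Bmpr1a followed at 13.5 FPKM, Smad5 at 4.35, Bambi at 2.83, Smad1 at 2.49 and Smad6 at 2.31 FPKM. Bmpr2 at 0.708 FPKM and Smad9 at 0.625 FPKM came last. Neighbours in this order overlapped in their ranges over the libraries, except Bmpr1a, at 10.3 FPKM or more, and Smad5, at 4.84 FPKM or less. The order changed with time, and at 24 h Bmpr1a stood above Bmp4 in every library. Genes with at least 1 FPKM in at least 2 libraries were tested, 13981 in all. Of the 8 members 7 passed this filter. Bmpr2 did not, with 0 libraries at 1 FPKM. Smad9 passed only through its 4 libraries at 0 h, so that its passing lends no weight to its fall.

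**Figure D1:**
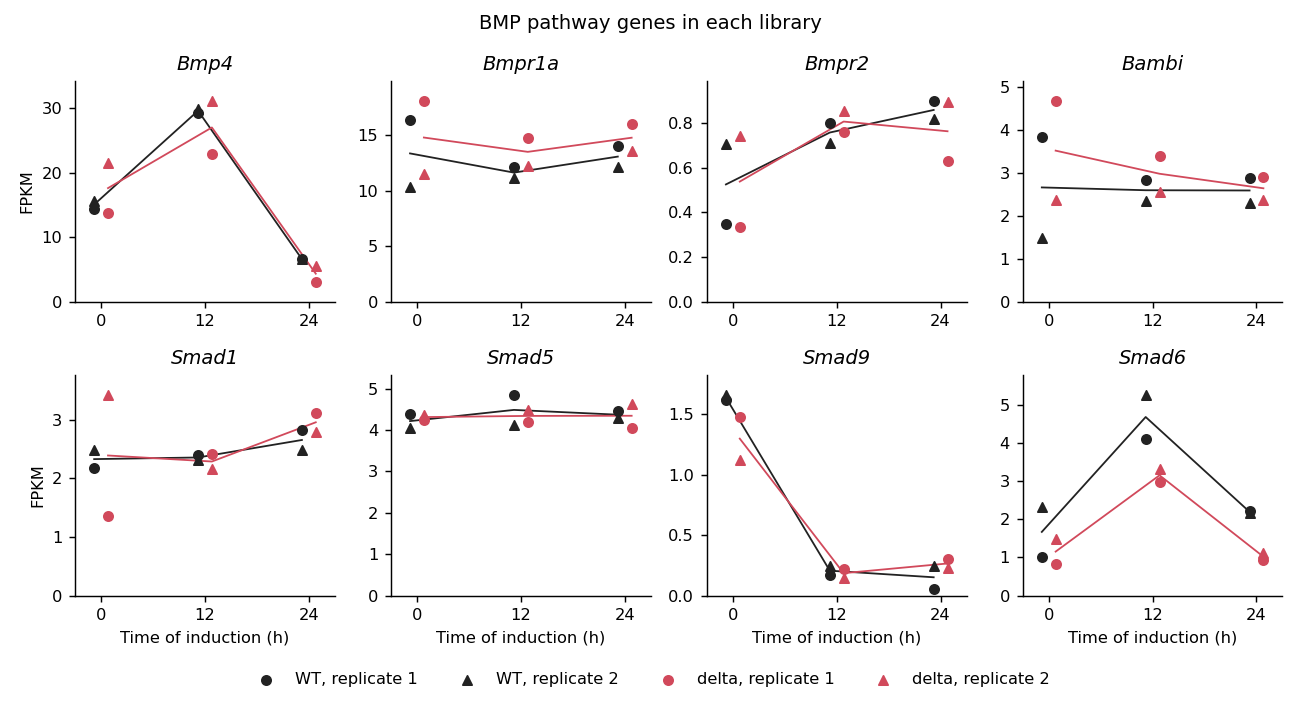
Level of each of the 8 genes in every library (FPKM, vertical axis starting at 0) against time of EpiLC induction in hours, with WT in black, delta in red, circles for replicate 1, triangles for replicate 2 and lines through group means. Bmp4 and Smad6 were highest in all 12 h libraries of each genotype, and Smad9 was above 1 FPKM only at 0 h. The remaining genes were not called in any comparison over time.

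Bmp4, the ligand gene, had its highest RNA level at 12 h and fell to its lowest at 24 h in both genotypes. The gene lies at chr14:46383520-46390669 on the minus strand (GENCODE M21, mm10; ENSMUSG00000021835). In WT libraries it read 14.4 and 15.7 FPKM at 0 h, 29.3 and 29.9 FPKM at 12 h, and 6.56 and 6.62 FPKM at 24 h. In delta libraries it read 13.7 and 21.5 FPKM at 0 h, 22.9 and 31.1 FPKM at 12 h, and 3.10 and 5.56 FPKM at 24 h. Bmp4 overlaps 2 genes of the opposite strand, Gm15217 by 89 bases of exon and Gm15222 by 0, at 1.98 and 4.37 FPKM or less, and a strand setting of the counting is not stated. The 3 times did not overlap in either genotype: every 12 h library stood above every 0 h library, and every 24 h library below. The mean at 12 h was 1.97 times that at 0 h in WT and 1.53 times in delta, and the 12 h mean was 4.49 and 6.24 times the 24 h mean.

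The fall of Bmp4 to 24 h passed the test in both genotypes, and its difference between 0 h and 12 h did not. On the log2(FPKM + 1) scale, used for all changes given here, which understates the change of low genes, the 24 h level lay below 0 h by -1.08 ± 0.28 (SE, n = 2 libraries a group) in WT (limma, Benjamini-Hochberg adjusted p = 0.0395) and by -1.81 ± 0.28 in delta (limma, adjusted p = 0.00275). Against 12 h it lay at -2.01 in WT (limma, adjusted p = 0.0295) and -2.42 in delta (limma, adjusted p = 0.00583). The change from 0 h to 12 h was 0.93 in WT (limma, adjusted p = 0.113) and 0.61 in delta (limma, adjusted p = 0.224). With the replicate number as a block, the WT change of 0.93 passed (limma, adjusted p = 0.036). It also passed without either delta library at 0 h (limma, adjusted p = 0.048), and the delta change passed without delta replicate 2 at 0 h (0.92; limma, adjusted p = 0.041).
The delta fall from 0 h to 24 h was called under all 20 alternatives. Each of the other calls was lost when certain single libraries were left out, in WT also libraries outside the comparison. The WT call against 0 h was lost without any 1 of the 6 WT libraries or either delta library at 12 h, with changes of -1.13 to -1.02, and the WT call against 12 h without any 1 of the same libraries. The first was also lost with no filter on level (limma, adjusted p = 0.069) and the second with a pseudocount of 0.1 (-2.15; limma, adjusted p = 0.052). The delta call against 12 h was lost without delta replicate 2 at 12 h (-2.20; limma, adjusted p = 0.096) or replicate 1 at 24 h (-2.08; limma, adjusted p = 0.074).

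Smad9, also known as Smad8, encodes one of the SMADs that BMP receptors phosphorylate, and its RNA fell by 12 h and stayed low at 24 h in both genotypes. It lies at chr3:54755582-54801257 on the plus strand (ENSMUSG00000027796). WT libraries held 1.62 and 1.66 FPKM at 0 h, 0.171 and 0.243 FPKM at 12 h, and 0.0582 and 0.246 FPKM at 24 h. Delta libraries held 1.47 and 1.12 FPKM at 0 h, 0.224 and 0.149 FPKM at 12 h, and 0.302 and 0.231 FPKM at 24 h. Every library at 0 h stood above every later library, and the 12 h and 24 h levels overlapped. In reads, the 4 libraries at 0 h held 71 to 116 and the 8 later ones 4 to 25, so the later levels are known only roughly. The 0 h mean was 7.92 times the 12 h mean in WT and 6.97 times in delta.

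The fall of Smad9 was called against 0 h at both times in both genotypes. In WT the change was -1.13 ± 0.18 (SE, n = 2) at 12 h (limma, adjusted p = 0.00946) and -1.20 at 24 h (limma, adjusted p = 0.00336). In delta it was -0.95 at 12 h (limma, adjusted p = 0.0154) and -0.86 at 24 h (limma, adjusted p = 0.013). Between 12 h and 24 h it moved by -0.07 in WT and 0.09 in delta. With a pseudocount of 0.1 in place of 1 the 4 changes ran from -2.89 to -1.93, since the pseudocount of 1 is large beside these levels.
The WT call at 24 h held without any single library. Without WT replicate 1 or 2 at 12 h the WT change at 12 h was -1.09 or -1.17 (limma, adjusted p = 0.085 or 0.053). The delta call at 12 h was lost without replicate 1 at 0 h (-0.84; limma, adjusted p = 0.052) without replicate 1 at 12 h (limma, adjusted p = 0.11) or without replicate 2 at 12 h (-0.91; limma, adjusted p = 0.13). The delta call at 24 h was lost without replicate 1 or 2 at 24 h (-0.90 or -0.82; limma, adjusted p = 0.066 or 0.097).
The summed markers of some other lineages moved the same way. The 6 trophoblast and extraembryonic ectoderm markers summed to 15.1 to 28.3 FPKM at 0 h, 4.34 to 6.27 at 12 h and 2.04 to 3.35 FPKM at 24 h, although Elf5 and Hand1 stayed below 1 FPKM in every library. The 5 mesoderm and primitive streak markers, which share Eomes with that list, summed to 10.2 to 45.6 FPKM at 0 h and 1.40 to 3.29 FPKM later. The falls of both sums came mostly from Cdx2, Tfap2c, T and Gsc. Eomes, at 0.940 to 2.16 FPKM over all libraries, did not fall by 24 h. Gata3 in WT read 0.0992 and 0.193 FPKM at 0 h and 0.376 and 1.06 FPKM at 12 h. The part of these markers in the Smad9 and Bmp4 changes was not tested. In bulk samples fewer cells of a type and less RNA per cell cannot be told apart.

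Smad6, whose protein binds type I receptors and SMAD1 and so blocks the pathway, was also highest at 12 h, at a lower level than Bmp4. It lies at chr9:63953076-64022059 on the minus strand (ENSMUSG00000036867), behind the promoter with the palindrome printed above. WT libraries read 1.02 and 2.32 FPKM at 0 h, 4.11 and 5.25 FPKM at 12 h, and 2.22 and 2.17 FPKM at 24 h. Delta libraries read 0.835 and 1.47 FPKM at 0 h, 2.98 and 3.33 FPKM at 12 h, and 0.932 and 1.11 FPKM at 24 h. All 12 h libraries of a genotype stood above its other libraries, while 0 h and 24 h overlapped. The 12 h mean was 2.80 times the 0 h mean in WT and 2.73 times in delta, and 2.13 and 3.09 times the 24 h mean.

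The rise of Smad6 to 12 h was called in WT at 1.13 ± 0.26 (SE, n = 2; limma, adjusted p = 0.0493), just inside the threshold of 0.05, and not in delta at 0.96 (limma, adjusted p = 0.0622). The WT call held under 7 of 19 alternatives. It was lost without WT replicate 1 at 0 h (0.77; limma, adjusted p = 0.231), without any 1 library of 12 h or 24 h (0.98 to 1.27; limma, adjusted p = 0.0874 to 0.246), with a pseudocount of 0.1 (limma, adjusted p = 0.074), with no filter on level (limma, adjusted p = 0.115) and with voom (adjusted p = 0.0554). The delta change passed with the replicate block (limma, adjusted p = 0.022), with library medians equalised (limma, adjusted p = 0.036) and without both 0 h libraries numbered 1 (0.75; limma, adjusted p = 0.035). It also passed without delta replicate 2 at 0 h (1.18; limma, adjusted p = 0.023) and without either WT library at 0 h (limma, adjusted p = 0.029). From 12 h to 24 h the change was -0.82 in WT (limma, adjusted p = 0.334) and -1.04 in delta (limma, adjusted p = 0.122). With the block the delta value passed (limma, adjusted p = 0.042). Without both 0 h libraries numbered 1 the WT and delta values passed (limma, adjusted p = 0.043 and 0.014).

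The receptors and the other SMADs did not pass in any comparison over time. Bmpr1a, a type I receptor gene, lies at chr14:34410734-34503341 (minus strand, ENSMUSG00000021796). In WT it read 16.4 and 10.3 FPKM at 0 h, 12.1 and 11.1 at 12 h, and 13.99 and 12.17 at 24 h. In delta it read 18.1 and 11.5, then 14.7 and 12.3, then 16.0 and 13.6 FPKM. Replicate 1 was above replicate 2 in all 6 groups, and most of all at 0 h, where these libraries also had more ribosomal protein reads, whose part in the gap was not tested. Changes from 0 h lay between -0.15 and 0.03. Gm17110, on the opposite strand at 3.41 to 7.58 FPKM, shares 290 bases of exon with Bmpr1a, so some reads could belong to either.

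Bmpr2 encodes a type II receptor that binds BMPs and lies at chr1:59763400-59879014 on the plus strand (ENSMUSG00000067336). Its levels were 0.335 to 0.741 FPKM in the 4 libraries at 0 h and 0.632 to 0.899 FPKM in the 8 later ones. They rest on 54 to 251 reads per library, divided by an exon length of 17983 bases, the longest of the members. With every gene above 0 in at least 1 library entering the fit, its changes from 0 h lay between 0.21 and 0.30. None was called (limma). Acvr2a and Acvr2b, from the list of other receptor genes described below, stood higher, at 1.52 to 2.69 and 3.63 to 12.6 FPKM.

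Bambi, at chr18:3507923-3516404 on the plus strand (ENSMUSG00000024232), encodes a receptor-like protein that lacks the kinase domain. WT libraries read 3.84 and 1.48 FPKM at 0 h, 2.84 and 2.35 at 12 h, and 2.88 and 2.29 FPKM at 24 h. Delta libraries read 4.67 and 2.36, then 3.39 and 2.56, then 2.91 and 2.36 FPKM. As with Bmpr1a, replicate 1 exceeded replicate 2 in every group. The gap was largest at 0 h, and the WT libraries at 0 h enclosed all later WT values. Changes from 0 h were 0.05 at both times in WT, and -0.14 and -0.27 in delta.

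Smad1 and Smad5 encode the other SMADs that BMP receptors phosphorylate. Smad5 (chr13:56703010-56742377, plus strand, ENSMUSG00000021540) was the steadiest member, with 4.06 to 4.84 FPKM over all 12 libraries. Its 4 changes from 0 h lay between 0.01 and 0.07. Smad1 (chr8:79338395-79399518, minus strand, ENSMUSG00000031681) read 2.17 and 2.48 FPKM in WT at 0 h, 2.40 and 2.31 at 12 h, and 2.82 and 2.49 FPKM at 24 h. In delta it read 1.36 and 3.42 at 0 h, 2.41 and 2.16 at 12 h, and 3.12 and 2.79 FPKM at 24 h. The delta libraries at 0 h lay on either side of all others. Without delta replicate 2 at 0 h the delta change at 24 h was 0.74 (limma, adjusted p = 0.018), against 0.29 with it (limma, adjusted p = 0.496).

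At 12 h against 0 h in WT, 2 of the 7 tested members were called, where 4.03% of all tested genes were. They were Smad6, higher as were 2.13% of all genes, and Smad9, lower as were 1.90%. Smad9 passed the filter only through its 4 libraries at 0 h, so its calls here and below lend no weight to these counts. In delta 1 member was called at 12 h, Smad9, where 7.00% of all genes were called and 3.45% lower. At 24 h against 0 h in WT 2 members, Bmp4 and Smad9, were called lower, where 10.2% of all genes were called and 4.94% lower. The same 2 members were lower at 24 h in delta, where 15.4% of all genes were called and 7.80% lower. At 24 h against 12 h Bmp4 was the only member called. It was lower in WT, where 0.408% of all genes were called and 0.157% lower, and in delta, where 1.36% were called and 0.601% lower. The median change of the 7 members was near that of all tested genes, for example 0.05 against -0.02 at 12 h and 0.04 against -0.03 at 24 h in WT.

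**Figure D2:**
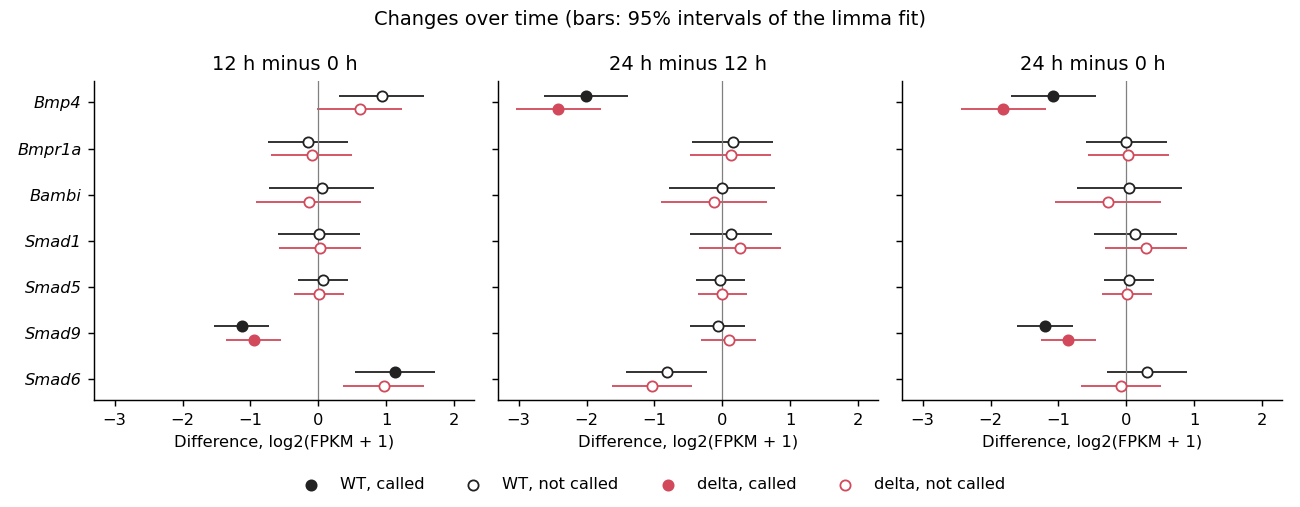
Fitted change of the 7 tested members between times on the log2(FPKM + 1) scale (horizontal axis), in WT (black) and delta (red), with 95% confidence intervals as bars and called changes as filled points. Smad9 lies below 0 at 12 h and 24 h against 0 h, Bmp4 lies below 0 at 24 h against both other times, and Bmpr1a, Bambi, Smad1 and Smad5 stay near 0.

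None of the 8 genes was called between the genotypes at any time. At 0 h, 12 h and 24 h 0 of 7 members were called by limma, against 0.00715%, 0.0143% and 0.00715% of all tested genes. Averaged over the times 0 of 7 were called against 0.0143%. A fit by voom weights on the recovered reads also called 0. At an unadjusted p under 0.05, 0 members passed at 0 h and 12 h, where 2.02% and 0.887% of all genes passed. Smad6 alone passed at 24 h and in the average, where 1.53% and 4.33% of all genes passed.

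Smad6 had the largest genotype difference of the 7 at 12 h, at 24 h and in the average, while at 0 h Bambi differed more, by 0.33. It was lower in delta in 6 of 6 pairs of libraries with the same time and number, and WT means were 1.45, 1.48 and 2.15 times the delta means at 0 h, 12 h and 24 h. The differences in log2 were -0.28, -0.45 and -0.66, and the average was -0.46 ± 0.15 (SE; 95% interval -0.80 to -0.12; limma, unadjusted p = 0.013, adjusted p = 1, and 0.149 to 1 over 19 alternatives). The fibroblast markers were higher in the WT libraries numbered 1, at 21.3 to 48.8 FPKM in sum against 6.58 FPKM or less elsewhere, and their part in the Smad6 difference was not tested. The formative and naive marker sums given above also differed between the genotypes at 24 h. Their part in the differences of Smad6 and Bmp4 at that time was not tested either.

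For the other members the average difference between delta and WT was small. It was -0.17 for Bmp4, 0.17 for Bmpr1a (95% interval -0.18 to 0.51), 0.17 for Bambi, 0.01 for Smad1, -0.01 for Smad5 (95% interval -0.22 to 0.20) and -0.03 for Smad9. Bmpr1a and Bambi were higher in delta in 6 of 6 pairs. Bmp4 at 24 h stood at 6.56 and 6.62 FPKM in WT and at 3.10 and 5.56 FPKM in delta, with no overlap, and the difference of -0.55 did not pass (limma, unadjusted p = 0.077).
No member was called for a difference between genotypes in its change over time (the interaction term). At 12 h and at 24 h limma called 0 of 7 members and 0% of all genes, Tcf15 included, so the missing calls do not show that the changes were alike. At an unadjusted p under 0.05 it called 0 members, where 0.615% of all genes passed at 12 h and 0.987% at 24 h, and voom called 0. The difference of -0.73 in the 24 h change of Bmp4 had a 95% interval of -1.61 to 0.15.

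**Figure D3:**
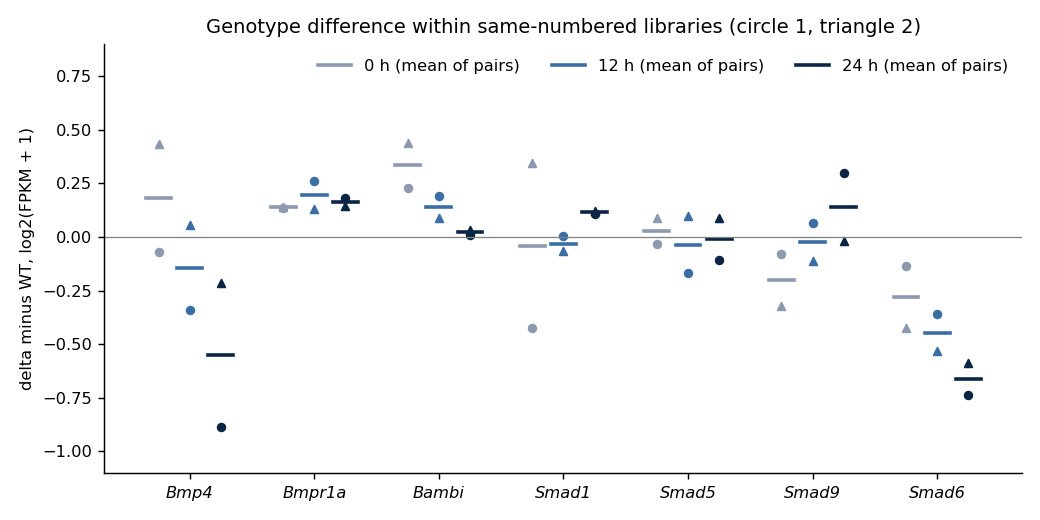
Difference of delta from WT for the 7 tested members on the log2(FPKM + 1) scale (vertical axis) at 0 h, 12 h and 24 h, from light to dark, with circles for the libraries numbered 1, triangles for those numbered 2 and bars for the mean of both. Smad6 lies below 0 in all 6 pairs and Bmpr1a and Bambi above 0, while Bmp4, Smad1, Smad5 and Smad9 have pairs on both sides.

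The rest of the pathway was read from lists of ligands, receptors, antagonists, intracellular modulators and targets, with 3, 7, 2, 12 and 5 genes tested. At 24 h against 0 h the median changes of the tested genes on these lists were 0.07, -0.55, -0.76, -0.07 and 0.15 in WT, beside -0.03 for all tested genes, and 0.08, -0.62, -0.89, 0.01 and 0.36 in delta, beside -0.05. The antagonist medians lie midway between Fst, which fell, and Twsg1, which was higher at 24 h. In the genotype difference averaged over times 0 genes of the 5 lists were called by limma. At an unadjusted p under 0.05, 1 of 3 ligands, 0 of 7 receptors, 1 of 2 antagonists, 0 of 12 modulators and 2 of 5 targets passed, where 4.33% of all tested genes did. Of 13 other BMP ligand genes 3 passed the filter, Bmp7, Bmp8a and Bmp8b. Bmp7 read 3.05 and 13.5 FPKM in delta at 0 h and 0.501 and 1.48 FPKM at 24 h. That change of -1.99 (limma, adjusted p = 0.0446) was the single ligand call among the 6 comparisons over time. In the same comparison 15.4% of all tested genes were called, and 7.80% were called lower. In WT Bmp7 changed by -1.29 and was not called. Bmp8a went from 0.575 and 0.894 FPKM at 0 h to 1.65 and 3.08 FPKM at 12 h in WT, and from 0.232 and 0.331 to 1.27 and 1.42 FPKM in delta. The difference did not pass in WT (0.93; limma, adjusted p = 0.0625) or delta (0.87; limma, adjusted p = 0.0563).

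Of 9 other receptor and coreceptor genes 7 were tested, and the 2 that were called encode repulsive guidance molecules, which act as BMP coreceptors. Rgma fell from 4.25 and 8.07 FPKM at 0 h to 1.13 and 0.434 FPKM at 12 h in WT, and from 2.94 and 6.79 to 0.970 and 0.576 FPKM in delta. The changes were -1.98 in WT (limma, adjusted p = 0.0205) and -1.65 in delta (limma, adjusted p = 0.0305). Rgmb was lower at 24 h than at 0 h by -0.87 in WT (limma, adjusted p = 0.0234) and -0.75 in delta (limma, adjusted p = 0.0331). The other 5 were called in none of the comparisons over time. At 12 h 1 of the 7 was called in each genotype, where 4.03% of all tested genes were in WT and 7.00% in delta, and at 24 h against 0 h 2 of the 7, where 10.2% and 15.4% were.

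Of 13 extracellular antagonist genes 2 were tested. Fst, for follistatin, which binds activin and some BMPs, fell from 13.8 and 16.1 FPKM at 0 h to 3.79 and 5.74 FPKM at 12 h and 1.97 and 3.21 FPKM at 24 h in WT. The change at 24 h was -2.17 in WT (limma, adjusted p = 0.000543) and -2.13 in delta (limma, adjusted p = 0.00043). Of all tested genes 10.2% were called in that comparison in WT and 15.4% in delta. Twsg1 was not called, and in WT it read 9.85 and 7.97 FPKM at 0 h and 15.9 and 13.3 FPKM at 24 h. In delta it read 10.4 and 14.6, then 17.6 and 14.6 FPKM. Nog and Chrd, for noggin and chordin, were at most 0.768 and 0.583 FPKM in any library.

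All 12 intracellular modulator genes were tested, and 2 were called at 24 h against 0 h in both genotypes, where 10.2% of all tested genes were called in WT and 15.4% in delta. Skil, which encodes a repressor of SMAD-dependent transcription, was higher at 24 h by 2.29 in WT (limma, adjusted p = 0.0169) and 2.17 in delta (limma, adjusted p = 0.0165). Tob1, whose protein can restrain SMAD activity, was lower by -0.71 in WT (limma, adjusted p = 0.0293) and -1.22 in delta (limma, adjusted p = 0.00183), and in delta also at 12 h by -0.75 (limma, adjusted p = 0.0305). Smad7, the other inhibitory SMAD gene, was not called.

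Of 7 target genes 5 were tested, and the Id genes did not move as one. Id1, Id2 and Id3 were highest at 12 h in both genotypes, while Id4 fell. At 12 h against 0 h 1 target was called higher and 1 lower in WT, and 2 higher and 1 lower in delta. Of all tested genes 4.03% and 7.00% were called there. At 24 h against 0 h 1 was called higher and 1 lower in each genotype, where 10.2% and 15.4% of all tested genes were called. Id1 read 3.57 and 3.24 FPKM at 0 h, 14.2 and 7.34 FPKM at 12 h, and 5.45 and 2.89 FPKM at 24 h in WT. In delta it read 1.63 and 1.57, then 6.57 and 8.44, then 2.52 and 3.93 FPKM. Every 12 h library stood above the others of its genotype. The rise was called in delta (1.70; limma, adjusted p = 0.0177) and not in WT (1.35; limma, adjusted p = 0.0609).
Id3 was at 22.2 and 17.8 FPKM at 0 h and 37.3 and 27.1 FPKM at 12 h in WT, and at 32.2 and 8.23 and then 40.4 and 39.2 FPKM in delta. Its difference did not pass in WT (limma, adjusted p = 0.534) or delta (limma, adjusted p = 0.175). Id2 read 1.48 and 7.62 FPKM at 0 h and 8.46 and 14.3 FPKM at 12 h in WT. In delta it read 2.46 and 1.97, then 9.98 and 11.1 FPKM.
Id4 fell at every step. It went from 16.6 and 16.8 FPKM at 0 h through 6.06 and 5.79 to 1.69 and 1.91 FPKM at 24 h in WT, and its 24 h change was -2.66 in WT (limma, adjusted p = 0.000164) and -3.32 in delta (limma, adjusted p = 5.1e-05). Dusp9, a MAP kinase phosphatase gene that BMP is known to induce in stem cells, rose at every step, by 2.68 at 24 h in WT (limma, adjusted p = 0.000164) and 2.83 in delta (limma, adjusted p = 8e-05).

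A peak at 12 h, with both 12 h libraries above all others of the genotype in WT and in delta, was seen in Bmp4 and Smad6, 2 of the 7 tested members. The same held for 466 of 13981 tested genes, or 3.33%. On the lists it held for 1 of 3 ligands (Bmp8a), 0 of 7 receptors and coreceptors, 0 of 2 antagonists, 1 of 12 modulators (Ski) and 3 of 5 targets (Id1, Id2 and Id3). This pattern was chosen after the values were seen and carries no test. At 12 h each genotype was compared with its own 0 h libraries, so genes within a genotype share the libraries that set the pattern.

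**Figure D4:**
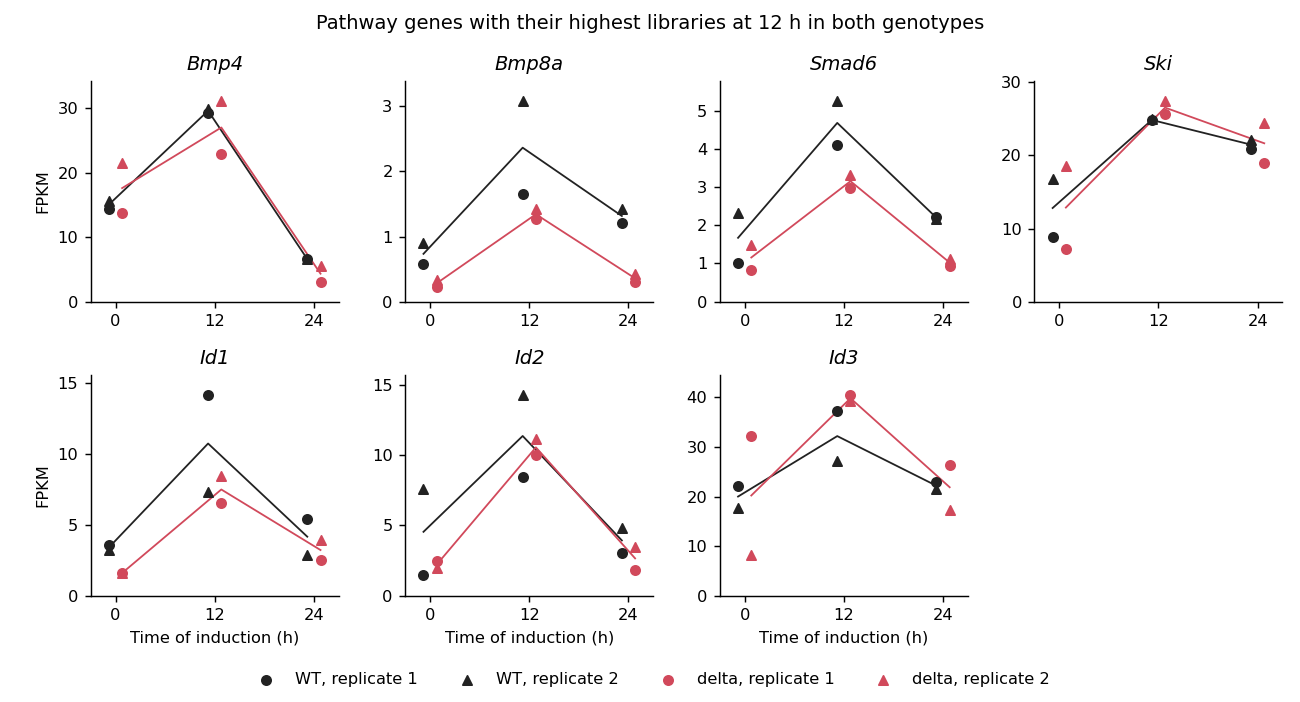
Level in every library (FPKM, vertical axes starting at 0) against time of induction in hours for the 7 pathway genes with a peak at 12 h, with WT in black, delta in red, circles for replicate 1, triangles for replicate 2 and lines through group means. Id3 at 0 h was at 32.2 and 8.23 FPKM in the delta libraries, and Smad6 and Bmp8a lie lower in delta than in WT.

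Among 7056 named genes with a mean of at least 5 FPKM, the genes closest to a member were found by the root mean square (RMS) difference of centred log2(FPKM + 1) values over the 12 libraries. For Bmp4, whose own RMS around its mean was 0.96, they were Gprc5a (0.28), Tead4 (0.38) and Dact2 (0.39). Gprc5a differed from Bmp4 in its smaller difference between 0 h and 12 h, with WT means of 16.9, 21.7 and 5.88 FPKM at 0 h, 12 h and 24 h. In delta its means were 17.6, 17.3 and 2.79 FPKM, without a rise at 12 h. The delta means at 0 h and 12 h were 9.43 and 9.80 FPKM for Tead4 and 28.6 and 29.8 FPKM for Dact2. For Smad6 (own RMS 0.56) they were Slc29a3 (0.14), Fam129b (0.16) and Glis2 (0.22). Fam129b had WT means of 22.0, 49.5 and 24.9 FPKM. For Smad9 (own RMS 0.50) they were Coro1b (0.11), Bid (0.12) and Magt1 (0.14), and Coro1b had WT means of 44.1, 22.3 and 20.6 FPKM. The last set is close in the size of the log2 change that the pseudocount leaves of Smad9 and not in its fold.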

How the data were processed

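RNA was read in 12 libraries. The authors deposited FPKM values for 47729 genes with Ensembl identifiers. Tools named in the submitters' processing notes are STAR 2.5.2b, cutadapt, featureCounts 1.5.1 and edgeR 3.16.5, and the build is mm10. No role or order is given. Per the labels' protocols, RNeasy Plus columns, oligo-dT beads and the NEBNext Ultra II kit were used. No strand setting is given in the sources used here.

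FPKM is not a count, so the test was limma 3.58.1 (R 4.3.3) on log2(FPKM + 1). Genes with at least 1 FPKM in at least 2 libraries entered, 13981 in all. All 12 libraries shared 1 fit of 6 group means with trended moderated variances and no block. P-values were adjusted over all tested genes by Benjamini-Hochberg, and a gene was called under 0.05. Low values were whole multiples of 1 read: with lengths from GENCODE M21, or from the steps themselves, 28656 of 28657 genes gave whole reads within 0.01. These reads gave the depth and the voom alternative. The fit was also run on simulated data whose libraries varied independently, which does not cover deviations shared by same-numbered libraries. Tables and figures used Python 3.11.15.

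Same-numbered WT and delta libraries deviated together from their group means, with correlations over genes of 0.70, 0.28 and 0.37 at 0 h, 12 h and 24 h. The numbers from the titles were thus taken as pairs for the block alternative.

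The members, lists and marker genes were chosen with earlier results of these data known. Named are all 8 members, up to 4 called genes of each pathway list, Id1 and Id3, and the 3 genes most like each called member. Bmp8a, Twsg1, Nog, Chrd, Smad7, Ski, Id2, Acvr2a and Acvr2b were named after their values were seen. So were the markers Cdx2, Tfap2c, T, Gsc and Gata3. The alternatives were a pseudocount of 0.1, no filter, a mean of at least 5 FPKM, equalised medians, the block, variances without the trend and omission of each library. Voom and omission of both 0 h libraries numbered 1 were chosen after seeing the data.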

Additional observations from a re-analysis of the deposited data

How the results depend on the processing

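Of 84 member results under up to 20 alternatives, 110 of 1620 values changed sign, 0 of them with a call in either fit, and 53 changed their call. The number of members called moved as follows by limma. At 12 h against 0 h in WT it went from 2 to 1 with a pseudocount of 0.1, to 1 with no filter, to 1 with voom, to 0 with a mean of at least 5 FPKM and to 3 with the replicate block, and omitting 1 library gave 0 to 3. At 24 h against 0 h in WT it went from 2 to 1 with no filter or the filter at 5 FPKM, and omitting 1 library gave 1 to 2. At 24 h against 12 h in WT it went from 1 to 0 with a pseudocount of 0.1 and to 2 without both 0 h libraries numbered 1, and omitting 1 library gave 0 to 1. In delta the 12 h count of 1 became 0 with the filter at 5 FPKM and 2 with equalised medians, with the replicate block or without both 0 h libraries numbered 1, and omitting 1 library gave 0 to 3. The delta 24 h count of 2 became 1 with the filter at 5 FPKM, and omitting 1 library gave 1 to 3. The delta count of 1 at 24 h against 12 h became 2 with the replicate block or without both of those libraries, and omitting 1 library gave 0 to 1. The filter at 5 FPKM leaves only Bmp4 and Bmpr1a among the members. Between genotypes the count stayed at 0 under every alternative run. The replicate block changed no member call other than those named with the results.

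Over all tested genes, in the order of the comparisons over time (WT, then delta, 12 h and 24 h against 0 h, then 24 h against 12 h), the counts of 563, 1427, 57, 979, 2151 and 190 became 989, 2091, 163, 1605, 2969 and 350 with the block. Their lowest values over the alternatives were 130, 596, 0, 173, 789 and 13, and their highest 1169, 2830, 335, 4522, 5080 and 713. The genotype counts of 1, 2, 1 and 2 (0 h, 12 h, 24 h, average) ran from 0 to 6, 0 to 2, 1 to 18 and 2 to 10, and the interaction counts of 0 reached 5 and 13 with no filter. Smad9 after 0 h rests on 4 to 25 reads per library.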

Other observations

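Genes beside the members on their chromosomes were read on the same scale, and a part of such surroundings in any result was not tested. Within 2 Mb of Smad6, 44 tested genes had a median difference of 0.01 between delta and WT (log2, averaged over times), where Smad6 had -0.46. Around Bmp4 the median of 26 tested genes was 0.13, where Bmp4 had -0.17. Between replicates 2 and 1 of WT (2 minus 1) the 13 tested neighbours of Bmpr1a had a median of 0.17 where Bmpr1a had -0.31, and the 9 tested neighbours of Bambi had a median of -0.17 where Bambi had -0.47. In delta the same difference was 0.10 beside -0.36 for Bmpr1a and 0.03 beside -0.42 for Bambi.

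Outside chromosome 18, 67 genes held the palindrome GTCTAGAC in a promoter window, of which 28 were tested. At 12 h against 0 h in WT 1 of them was called higher, Smad6, and 0 lower, with a median change of 0.00 beside -0.02 for all tested genes. In delta 0 were called higher and 1 lower, Rab15. The share of all tested genes called at 12 h was 4.03% in WT and 7.00% in delta.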
